A study of Mus musculus with 112 samples.

Results

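The mitochondrial protein import genes named Timm and Tomm were followed through white adipose tissue (WAT) of calorie-restricted and control mice. The 24 members are all genes whose symbol starts with Timm or Tomm and a digit and that carry a probe set with no other symbol, out of 19938 genes in the table. Where several probe sets share a symbol, the brightest one stands for the gene. By the place of the protein, 9 members belong to the outer membrane, 6 to the intermembrane space, 8 to the inner membrane and 1, Tomm34, to the cytosol. The assignment is by role and used no value of these arrays.

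The tissue was epididymal WAT of male mice of 7 strains, and each of 112 Affymetrix Mouse Gene 1.0 ST arrays held RNA of 1 mouse. Calorie restriction (CR) or the control diet, both based on AIN93M, was given for the age span of 8 to 22 weeks, with 8 mice per strain and diet, singly housed and fasted overnight before collection. The strains were B6C3F1/J, a hybrid of C57BL/6 and C3H, 129S1/SvImJ, DBA/2J, CBA/J, C3H/HeJ, BALB/cJ (written Balbc/J in the labels) and C57BL/6J (written C57BL6/J). No strain carried an engineered allele. The food cut was deepened midway in 129S1/SvImJ and C57BL/6J, and both diet groups of BALB/cJ received more food once weight loss was seen on its CR allotment, so the restriction was not the same in every strain. Values are log2 signals after RMA, and a difference of 1 is a doubling. Signals of different genes come from different probes, so strains and diets are compared only within a gene. Where a gene is called bright or dim among others, this describes its signal on the array.

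Nearly all mitochondrial proteins are made in the cytosol and must be threaded through the membranes. The TOM complex of the outer membrane holds receptors that recognise the precursor and a channel that passes it on. Small Tim chaperones shuttle hydrophobic precursors across the intermembrane space to the TIM22 complex, while the TIM23 complex and its motor pull presequence proteins into the matrix. White adipocytes hold few mitochondria next to brown ones, and their number and content are known to change with nutrition.

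Some arrays stood apart before any result is read. Markers counted here as higher or lower passed an adjusted p under 0.05 across strains, against 21.9% of all genes higher and 22.0% lower. Of 8 adipocyte markers 1 was higher and 3 were lower on CR. Their mean log2 signal was 11.67 to 12.90 on CR and 12.60 to 12.94 on the control diet. All 10 macrophage markers were lower on CR, with a mean signal of 8.08 to 9.96 on CR against 8.45 to 11.26 on the control diet. Of 6 brown and beige fat markers 4 were higher on CR, and Ucp1, which defines brown fat, lay over 2 log2 units above its median on 8 arrays, 4 of them of 129S1/SvImJ on CR. Of 9 epididymis markers 3 were higher on CR. Their mean signal lay over 1 log2 unit above its median on 15 arrays, all of C57BL/6J on CR, CBA/J on CR or DBA/2J on either diet. Of 6 germ cell markers 3 were higher on CR, and in DBA/2J their mean signal was 6.82 ± 1.05 on CR against 5.90 ± 0.41 on the control diet (SD, n = 8 each). It lay over 1 log2 unit above its median on 7 arrays, 5 of them of DBA/2J on CR, 1 of DBA/2J on the control diet and 1 of C57BL/6J on CR. In BALB/cJ, control mouse 3 had the highest signal of its group for 18 of 24 members. It was not alone in this. B6C3F1/J CR mouse 8 was the lowest of its group for 18 members, and C57BL/6J CR mouse 2 and CBA/J control mouse 2 for 15 each. DBA/2J control mouse 2 was the highest of its group for 14. The part of these cells and arrays in the changes below was not tested beyond leaving some of the arrays out. In a whole tissue, more cells of a type and more RNA per cell cannot be told apart.

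Across strains, most of the import genes were higher on CR. In the model of 14 groups, the mean of the 7 CR minus control differences passed an adjusted p under 0.05 upward for 19 of 24 members, against 21.9% of all genes and 34.0% of the genes at or above the median signal. Downward it passed for 1 member, Tomm34, against 22.0% of all genes. The remaining 4, Tomm20, Tomm20l, Tomm22 and Timm8a2, did not pass. The 19 genes were 1.07 to 1.33 times as high on CR, a small change in each. All 7 strains were on the upward side for each of the 19 except Timm22 and Tomm5, which were on it in 6. The counts of 19 higher and 1 lower did not change when the 7 germ cell arrays, BALB/cJ control mouse 3, the 8 Ucp1 arrays, or that mouse and those 8 arrays together with the 15 epididymis arrays were left out. The median log2 change was 0.35 over the intermembrane space members, 0.29 over the inner membrane members and 0.15 over the outer membrane members, against 0.01 over all genes.

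**Figure D1:**
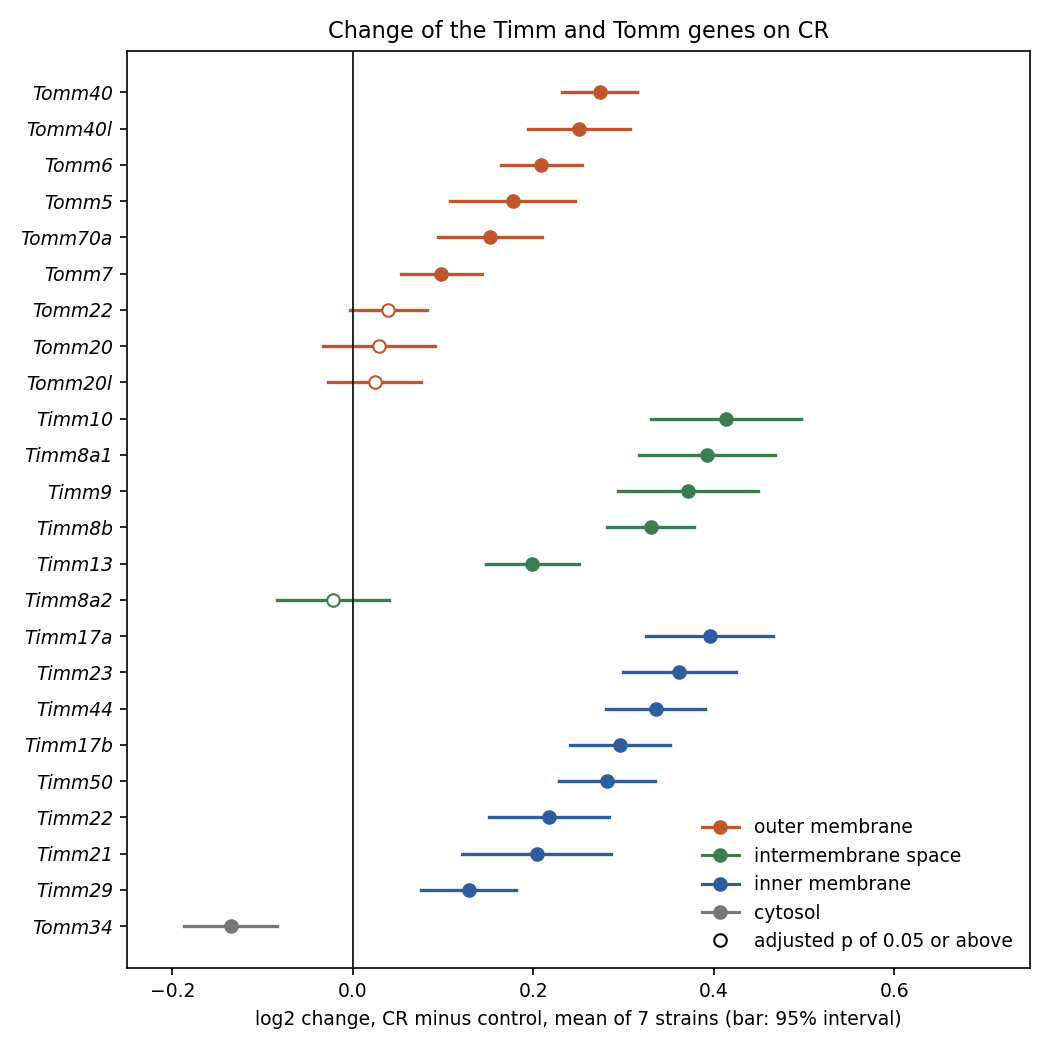
Log2 change on CR minus control, mean of 7 strains, for each Timm and Tomm gene (points) with its 95% interval (bars), coloured by the place of the protein. Open points did not pass an adjusted p of 0.05; Tomm20, Tomm20l, Tomm22 and Timm8a2 are open, and Tomm34 alone lies below 0 with its whole interval.

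The sequence before the start of transcription is shown for 6 members that span the response. Timm8b, Timm10 and Timm23 were among the members that passed upward, Tomm40 was the only member whose response passed the test for a difference between strains, Tomm20 did not pass and Tomm34 fell. The 250 bases before the start come from RefSeq on GRCm38.p6, with Timm8b at chr9:50603651-50603900, plus strand, Timm10 at chr2:84826771-84827020, plus strand, Timm23 at chr14:32201892-32202141, minus strand, Tomm40 at chr7:19715430-19715679, minus strand, Tomm20 at chr8:126945922-126946171, minus strand and Tomm34, for the first of its 2 listed starts, at chr2:164071170-164071419, minus strand. Each is written 5′ to 3′ along the gene, and capitals mark matches on either strand to the 6 motifs searched.
Timm8b: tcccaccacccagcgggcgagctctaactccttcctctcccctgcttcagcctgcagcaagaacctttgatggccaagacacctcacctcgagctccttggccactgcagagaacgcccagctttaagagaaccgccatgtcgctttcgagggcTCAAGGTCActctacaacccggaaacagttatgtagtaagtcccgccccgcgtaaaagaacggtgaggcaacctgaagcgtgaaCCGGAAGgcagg
Timm10: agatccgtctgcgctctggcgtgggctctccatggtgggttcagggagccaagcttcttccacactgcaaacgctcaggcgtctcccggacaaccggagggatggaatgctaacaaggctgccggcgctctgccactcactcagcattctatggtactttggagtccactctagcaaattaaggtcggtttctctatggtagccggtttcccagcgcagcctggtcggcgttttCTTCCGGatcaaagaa
Timm23: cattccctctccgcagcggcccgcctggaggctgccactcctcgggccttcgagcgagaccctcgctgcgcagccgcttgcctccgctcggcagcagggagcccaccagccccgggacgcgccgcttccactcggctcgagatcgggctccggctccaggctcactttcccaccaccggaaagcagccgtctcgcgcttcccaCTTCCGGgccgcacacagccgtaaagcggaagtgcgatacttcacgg
Tomm40: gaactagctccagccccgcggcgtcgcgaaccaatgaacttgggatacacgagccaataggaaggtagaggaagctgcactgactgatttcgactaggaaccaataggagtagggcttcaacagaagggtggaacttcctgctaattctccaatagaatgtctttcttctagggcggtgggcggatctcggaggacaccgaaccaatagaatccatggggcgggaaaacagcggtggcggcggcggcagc
Tomm20: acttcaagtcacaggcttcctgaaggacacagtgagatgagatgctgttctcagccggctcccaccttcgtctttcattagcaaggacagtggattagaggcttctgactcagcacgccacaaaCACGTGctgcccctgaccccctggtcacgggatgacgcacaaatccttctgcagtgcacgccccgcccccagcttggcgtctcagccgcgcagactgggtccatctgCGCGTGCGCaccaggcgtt
Tomm34: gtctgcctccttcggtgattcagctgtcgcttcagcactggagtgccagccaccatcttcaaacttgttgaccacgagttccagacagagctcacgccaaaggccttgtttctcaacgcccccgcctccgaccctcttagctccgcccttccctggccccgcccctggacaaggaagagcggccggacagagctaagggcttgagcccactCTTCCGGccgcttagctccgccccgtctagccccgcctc
The motifs were CCGGAAG of GABPA and other ETS factors, GCGCANGCG of NRF1, TCAAGGTCA of ESRRA, AAGATGGCG of YY1, TGACGTCA of CREB and CACGTG of MYC and USF, factors known as regulators of genes for mitochondrial proteins or of growth. Promoters were listed for 21 of 24 members. The ETS letters were found in 8 of the 21, against 7.05% of 27025 genes with a listed promoter. Of these, Timm10, Timm23, Timm29, Timm8b and Tomm70a were higher on CR, and Timm8a2, Tomm22 and Tomm34 were not. In the promoters printed the ETS letters lie at 12 bases before the start in Timm8b, 16 in Timm10, 47 in Timm23 and 39 in Tomm34. CACGTG was found in 4 members (6.05% of all), the NRF1 letters in 2 (5.33%), those of ESRRA in 1, Timm8b (0.366%), and those of YY1 (0.607%) and CREB (1.62%) in none. Tomm20 holds the NRF1 letters at 19 bases and CACGTG at 126 bases before the start, and Tomm40 holds none of the 6. The members' promoters had a median GC content of 57.6%, against 52.0% over all. A match describes letters in this window and was not tested as a site.

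In the outer membrane 6 of 9 members were higher on CR, the channel among them, while both presequence receptors did not pass. For Tomm40, the channel of the TOM complex, the log2 change was 0.27 (adjusted p = 2.7e-21, SE 0.021). The lowest, median and highest log2 signals of Tomm40 in 129S1/SvImJ were 8.68, 8.88 and 9.06 on CR, against 8.31, 8.36 and 8.54 in control mice. In BALB/cJ Tomm40 was at 8.27, 8.56 and 8.82 on CR, against 8.28, 8.37 and 8.63 in control mice. In C57BL/6J Tomm40 was at 8.38, 8.59 and 8.67 on CR, against 8.19, 8.36 and 8.53 in control mice. The groups were apart in 129S1/SvImJ, with all 8 CR mice above every control mouse, and overlapped in BALB/cJ and C57BL/6J. In C3H/HeJ Tomm40 was at 8.71, 8.85 and 8.98 on CR, against 8.34, 8.53 and 8.76 in control mice. In CBA/J Tomm40 was at 8.60, 8.91 and 9.04 on CR, against 8.51, 8.59 and 8.64 in control mice. In DBA/2J Tomm40 was at 8.56, 8.63 and 8.73 on CR, against 8.40, 8.46 and 8.66 in control mice. In CBA/J 7 CR mice lay above all controls, and in DBA/2J 2 did. In B6C3F1/J Tomm40 was at 8.52, 8.78 and 8.81 on CR, against 8.23, 8.37 and 8.48 in control mice. All 8 CR mice of the hybrid were above its controls.

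Tomm40l, a paralog of the channel, changed by 0.25 (adjusted p = 4.2e-13, SE 0.028) and was higher in every strain mean. Its mean signal was 7.99 ± 0.19 on CR against 7.62 ± 0.09 on control in 129S1/SvImJ, 7.74 ± 0.17 on CR against 7.60 ± 0.18 on control in BALB/cJ, 7.91 ± 0.22 on CR against 7.67 ± 0.12 on control in C57BL/6J and 7.86 ± 0.08 on CR against 7.58 ± 0.13 on control in C3H/HeJ (SD, n = 8 each). It was 7.88 ± 0.22 on CR against 7.71 ± 0.11 on control in CBA/J, 7.76 ± 0.14 on CR against 7.62 ± 0.12 on control in DBA/2J and 8.02 ± 0.15 on CR against 7.60 ± 0.05 on control in B6C3F1/J. Within strains it passed in 129S1/SvImJ, C3H/HeJ and B6C3F1/J. The small subunits that surround the channel changed less, with Tomm6 at 0.21 (SE 0.023), Tomm5 at 0.18 (SE 0.035) and Tomm7 at 0.10 (SE 0.023). Tomm70a, a receptor for carrier precursors bound to chaperones, changed by 0.15 (SE 0.029).

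The 2 presequence receptors of the TOM complex did not pass. Tomm20 had a log2 change of 0.03 with a 95% interval of -0.03 to 0.09, and Tomm22, the central receptor, 0.04 with an interval of -0.003 to 0.08 (adjusted p = 0.14). Tomm22 did pass with quantile normalization (0.05, adjusted p = 0.027), with arrays centred on their median (0.05, adjusted p = 0.040), without CBA/J (0.06, adjusted p = 0.036) and without DBA/2J (0.06, adjusted p = 0.025). Mean signals of Tomm20 were 9.02 ± 0.21 on CR against 9.11 ± 0.10 on control in 129S1/SvImJ, 9.17 ± 0.25 on CR against 9.03 ± 0.29 on control in BALB/cJ, 8.85 ± 0.10 on CR against 8.90 ± 0.17 on control in C57BL/6J and 9.03 ± 0.12 on CR against 9.03 ± 0.15 on control in C3H/HeJ. They were 9.19 ± 0.15 on CR against 9.16 ± 0.08 on control in CBA/J, 9.05 ± 0.21 on CR against 9.09 ± 0.09 on control in DBA/2J and 9.10 ± 0.08 on CR against 8.87 ± 0.10 on control in B6C3F1/J. B6C3F1/J was the exception, with all 8 CR mice above all controls and a log2 difference of 0.23 (SE 0.049, adjusted p = 0.0014 within the strain). Tomm20 is measured by a pair of probe sets whose mean changes were 0.03 and 0.04.

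Tomm20l, a paralog of Tomm20, is one of 3 members below the median signal of all genes, with a mean log2 signal of 6.52. Its change across strains was 0.02, with a 95% interval of -0.03 to 0.08. The means of Tomm20l were 6.60 ± 0.15 on CR against 6.52 ± 0.13 on control in 129S1/SvImJ, 6.55 ± 0.10 on CR against 6.59 ± 0.16 on control in BALB/cJ, 6.47 ± 0.17 on CR against 6.47 ± 0.12 on control in C57BL/6J and 6.54 ± 0.12 on CR against 6.53 ± 0.16 on control in C3H/HeJ. In the others they were 6.56 ± 0.11 on CR against 6.50 ± 0.20 on control in CBA/J, 6.56 ± 0.14 on CR against 6.49 ± 0.12 on control in DBA/2J and 6.48 ± 0.05 on CR against 6.49 ± 0.11 on control in B6C3F1/J. No strain shows a gap between its diets.

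In the intermembrane space 5 of 6 members were higher on CR. Timm9 and Timm10 form the chaperone ring for carrier precursors, Timm8 proteins and Timm13 a second ring. For Timm8b the log2 change was 0.33 (adjusted p = 1.4e-22, SE 0.024). The lowest, median and highest log2 signals of Timm8b in 129S1/SvImJ were 10.14, 10.42 and 10.50 on CR, against 9.75, 10.03 and 10.16 in control mice. In BALB/cJ Timm8b was at 10.08, 10.44 and 10.69 on CR, against 10.08, 10.13 and 10.70 in control mice. In C57BL/6J Timm8b was at 10.15, 10.23 and 10.44 on CR, against 9.76, 9.86 and 9.98 in control mice. In C57BL/6J no control mouse reached the lowest CR mouse, and in BALB/cJ no CR mouse exceeded the highest control mouse. In C3H/HeJ Timm8b was at 9.995, 10.21 and 10.26 on CR, against 9.70, 9.90 and 10.18 in control mice. In CBA/J Timm8b was at 10.45, 10.54 and 10.61 on CR, against 9.93, 10.19 and 10.34 in control mice. In DBA/2J Timm8b was at 10.06, 10.38 and 10.47 on CR, against 9.96, 10.09 and 10.30 in control mice. The groups were apart in CBA/J, and in DBA/2J 7 of 8 CR mice lay above all controls. In B6C3F1/J Timm8b was at 10.15, 10.27 and 10.40 on CR, against 9.77, 9.86 and 9.90 in control mice. In the hybrid they did not overlap either, so Timm8b separated the diets in 3 strains.

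Timm10 changed by 0.41 (SE 0.042, adjusted p = 3.0e-15). The mean signal of Timm10 was 7.70 ± 0.29 on CR against 7.01 ± 0.09 on control in 129S1/SvImJ, 7.30 ± 0.33 on CR against 7.02 ± 0.31 on control in BALB/cJ, 7.37 ± 0.21 on CR against 7.23 ± 0.20 on control in C57BL/6J and 7.51 ± 0.11 on CR against 7.16 ± 0.18 on control in C3H/HeJ. It averaged 7.78 ± 0.34 on CR against 7.35 ± 0.14 on control in CBA/J, 7.44 ± 0.12 on CR against 7.06 ± 0.21 on control in DBA/2J and 7.80 ± 0.27 on CR against 7.17 ± 0.12 on control in B6C3F1/J. In 129S1/SvImJ and B6C3F1/J the log2 difference was 0.69 and 0.63, and in C57BL/6J it was 0.14 with an adjusted p of 0.37. The F-test for a CR effect that differs between strains just missed for Timm10 (adjusted p = 0.052). Timm9 changed by 0.37 (SE 0.039) and Timm13 by 0.20 (SE 0.026).

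Timm8a1, the mouse counterpart of the human gene of a deafness and dystonia syndrome, changed by 0.39 (SE 0.038, adjusted p = 3.1e-16) from a low mean signal of 6.41. Timm8a1 was at 6.64 ± 0.20 on CR against 6.06 ± 0.23 on control in 129S1/SvImJ, 6.55 ± 0.34 on CR against 6.21 ± 0.24 on control in BALB/cJ, 6.38 ± 0.22 on CR against 6.06 ± 0.20 on control in C57BL/6J and 6.61 ± 0.10 on CR against 6.18 ± 0.16 on control in C3H/HeJ. Elsewhere it was at 6.75 ± 0.26 on CR against 6.54 ± 0.16 on control in CBA/J, 6.58 ± 0.13 on CR against 6.18 ± 0.15 on control in DBA/2J and 6.75 ± 0.17 on CR against 6.28 ± 0.14 on control in B6C3F1/J. It passed within 5 strains, DBA/2J among them. Timm8a2 was the dimmest member, at a mean signal of 4.46, brighter than 7.25% of genes, and its change was -0.02 with a 95% interval of -0.08 to 0.04. The Timm8a2 means were 4.47 ± 0.22 on CR against 4.51 ± 0.20 on control in 129S1/SvImJ, 4.43 ± 0.11 on CR against 4.53 ± 0.16 on control in BALB/cJ, 4.33 ± 0.20 on CR against 4.55 ± 0.11 on control in C57BL/6J and 4.40 ± 0.19 on CR against 4.43 ± 0.17 on control in C3H/HeJ. They came to 4.58 ± 0.15 on CR against 4.48 ± 0.16 on control in CBA/J, 4.49 ± 0.25 on CR against 4.38 ± 0.10 on control in DBA/2J and 4.41 ± 0.10 on CR against 4.40 ± 0.15 on control in B6C3F1/J.

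In the inner membrane all 8 members were higher on CR. Timm23 and Timm17a or Timm17b form the core of the presequence translocase, and Timm23 was brighter than 98.01% of genes. The log2 change was 0.36 (adjusted p = 2.1e-18, SE 0.032). The lowest, median and highest log2 signals of Timm23 in 129S1/SvImJ were 10.78, 11.37 and 11.51 on CR, against 10.84, 10.88 and 11.07 in control mice. In BALB/cJ Timm23 was at 10.996, 11.25 and 11.72 on CR, against 10.74, 11.01 and 11.62 in control mice. In C57BL/6J Timm23 was at 10.72, 11.29 and 11.42 on CR, against 10.79, 10.86 and 10.99 in control mice. In 129S1/SvImJ and C57BL/6J 7 of 8 CR mice were above all controls and the last was below all of them. In C3H/HeJ Timm23 was at 11.19, 11.38 and 11.44 on CR, against 10.80, 10.94 and 11.27 in control mice. In CBA/J Timm23 was at 10.98, 11.45 and 11.51 on CR, against 10.76, 11.12 and 11.26 in control mice. In DBA/2J Timm23 was at 11.09, 11.35 and 11.47 on CR, against 10.88, 10.96 and 11.23 in control mice. In these strains 6, 7 and 6 CR mice lay above every control mouse. In B6C3F1/J Timm23 was at 11.29, 11.48 and 11.57 on CR, against 10.85, 10.89 and 11.06 in control mice. There the groups did not overlap. Within strains Timm23 passed in 6, every one but BALB/cJ, more than any other member. Timm23 has 4 probe sets, 2 of them with identical values, and the copies cannot be told apart; their mean changes were 0.35 to 0.36, and a different one was brightest in 2 strains and was used in the fit there.

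Timm44, which tethers the import motor to the channel, changed by 0.34 (SE 0.028, adjusted p = 8.5e-20). The lowest, median and highest log2 signals of Timm44 in 129S1/SvImJ were 7.78, 7.88 and 8.02 on CR, against 7.33, 7.48 and 7.73 in control mice. In BALB/cJ Timm44 was at 7.59, 7.90 and 8.25 on CR, against 7.51, 7.67 and 8.27 in control mice. In C57BL/6J Timm44 was at 7.68, 7.99 and 8.17 on CR, against 7.47, 7.57 and 7.81 in control mice. The diets of 129S1/SvImJ were apart and those of BALB/cJ lay over the same range. In C3H/HeJ Timm44 was at 7.75, 7.94 and 8.11 on CR, against 7.51, 7.65 and 7.98 in control mice. In CBA/J Timm44 was at 7.80, 8.08 and 8.38 on CR, against 7.49, 7.71 and 7.80 in control mice. In DBA/2J Timm44 was at 7.73, 7.88 and 8.07 on CR, against 7.48, 7.70 and 7.94 in control mice. In CBA/J the lowest CR mouse lay above the highest control mouse by 6e-05 log2 units only, so the groups touched. In B6C3F1/J Timm44 was at 7.86, 7.98 and 8.24 on CR, against 7.40, 7.53 and 7.68 in control mice. The diets of the hybrid were apart.

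Timm17a changed by 0.40 (SE 0.035, adjusted p = 5.9e-18) and its paralog Timm17b by 0.30 (SE 0.028, adjusted p = 1.4e-16). Mean Timm17a signals were 10.22 ± 0.17 on CR against 9.71 ± 0.14 on control in 129S1/SvImJ, 10.13 ± 0.30 on CR against 9.79 ± 0.29 on control in BALB/cJ, 9.95 ± 0.22 on CR against 9.67 ± 0.14 on control in C57BL/6J and 10.03 ± 0.16 on CR against 9.60 ± 0.20 on control in C3H/HeJ. They were 10.19 ± 0.20 on CR against 9.82 ± 0.14 on control in CBA/J, 10.17 ± 0.16 on CR against 9.87 ± 0.13 on control in DBA/2J and 10.16 ± 0.18 on CR against 9.60 ± 0.09 on control in B6C3F1/J, with no overlap in 129S1/SvImJ and B6C3F1/J. Timm17b averaged 9.04 ± 0.14 on CR against 8.77 ± 0.11 on control in 129S1/SvImJ, 9.05 ± 0.28 on CR against 8.83 ± 0.29 on control in BALB/cJ, 9.09 ± 0.14 on CR against 8.67 ± 0.15 on control in C57BL/6J and 9.12 ± 0.09 on CR against 8.79 ± 0.10 on control in C3H/HeJ. Its averages were 9.26 ± 0.09 on CR against 8.88 ± 0.09 on control in CBA/J, 8.89 ± 0.05 on CR against 8.79 ± 0.14 on control in DBA/2J and 9.08 ± 0.11 on CR against 8.73 ± 0.09 on control in B6C3F1/J, and the diets were apart in CBA/J. Timm22, the channel of the carrier translocase, changed by 0.22 (SE 0.034) and stood at 7.42 ± 0.19 on CR against 7.13 ± 0.13 on control in 129S1/SvImJ, 7.64 ± 0.34 on CR against 7.36 ± 0.32 on control in BALB/cJ, 7.33 ± 0.15 on CR against 7.23 ± 0.14 on control in C57BL/6J and 7.47 ± 0.09 on CR against 7.26 ± 0.13 on control in C3H/HeJ. It stood at 7.60 ± 0.16 on CR against 7.35 ± 0.08 on control in CBA/J, 7.40 ± 0.15 on CR against 7.42 ± 0.14 on control in DBA/2J and 7.63 ± 0.17 on CR against 7.20 ± 0.08 on control in B6C3F1/J. DBA/2J was the strain on the other side of 0, by -0.02. Timm50, the receptor of the presequence translocase, changed by 0.28 (SE 0.027), Timm21, which links the translocase to the respiratory chain, by 0.20 (SE 0.042) and Timm29, a subunit of the carrier translocase, by 0.13 (SE 0.026).

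Tomm34 is a cytosolic cochaperone of Hsp70 and Hsp90 that was first described as an import protein, and it was the one member lower on CR. Its log2 change across strains was -0.14 (adjusted p = 4.3e-06, SE 0.026), with all 7 strain means lower on CR. The lowest, median and highest log2 signals of Tomm34 in 129S1/SvImJ were 8.76, 8.92 and 9.20 on CR, against 9.01, 9.10 and 9.30 in control mice. In BALB/cJ Tomm34 was at 8.20, 8.58 and 8.88 on CR, against 8.37, 8.71 and 8.93 in control mice. In C57BL/6J Tomm34 was at 8.78, 8.99 and 9.12 on CR, against 8.83, 9.002 and 9.17 in control mice. In 129S1/SvImJ 6 CR mice lay below every control mouse, and in C57BL/6J the means differed by 0.01. In C3H/HeJ Tomm34 was at 8.39, 8.54 and 8.81 on CR, against 8.56, 8.85 and 8.97 in control mice. In CBA/J Tomm34 was at 8.34, 8.52 and 8.72 on CR, against 8.48, 8.66 and 8.91 in control mice. In DBA/2J Tomm34 was at 8.48, 8.61 and 8.68 on CR, against 8.59, 8.72 and 8.996 in control mice. C3H/HeJ was the only strain in which it passed by itself, with a difference of -0.27 (SE 0.067, adjusted p = 0.010). In B6C3F1/J Tomm34 was at 8.60, 8.68 and 8.79 on CR, against 8.61, 8.86 and 8.96 in control mice. The groups overlapped in every strain.

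**Figure D2:**
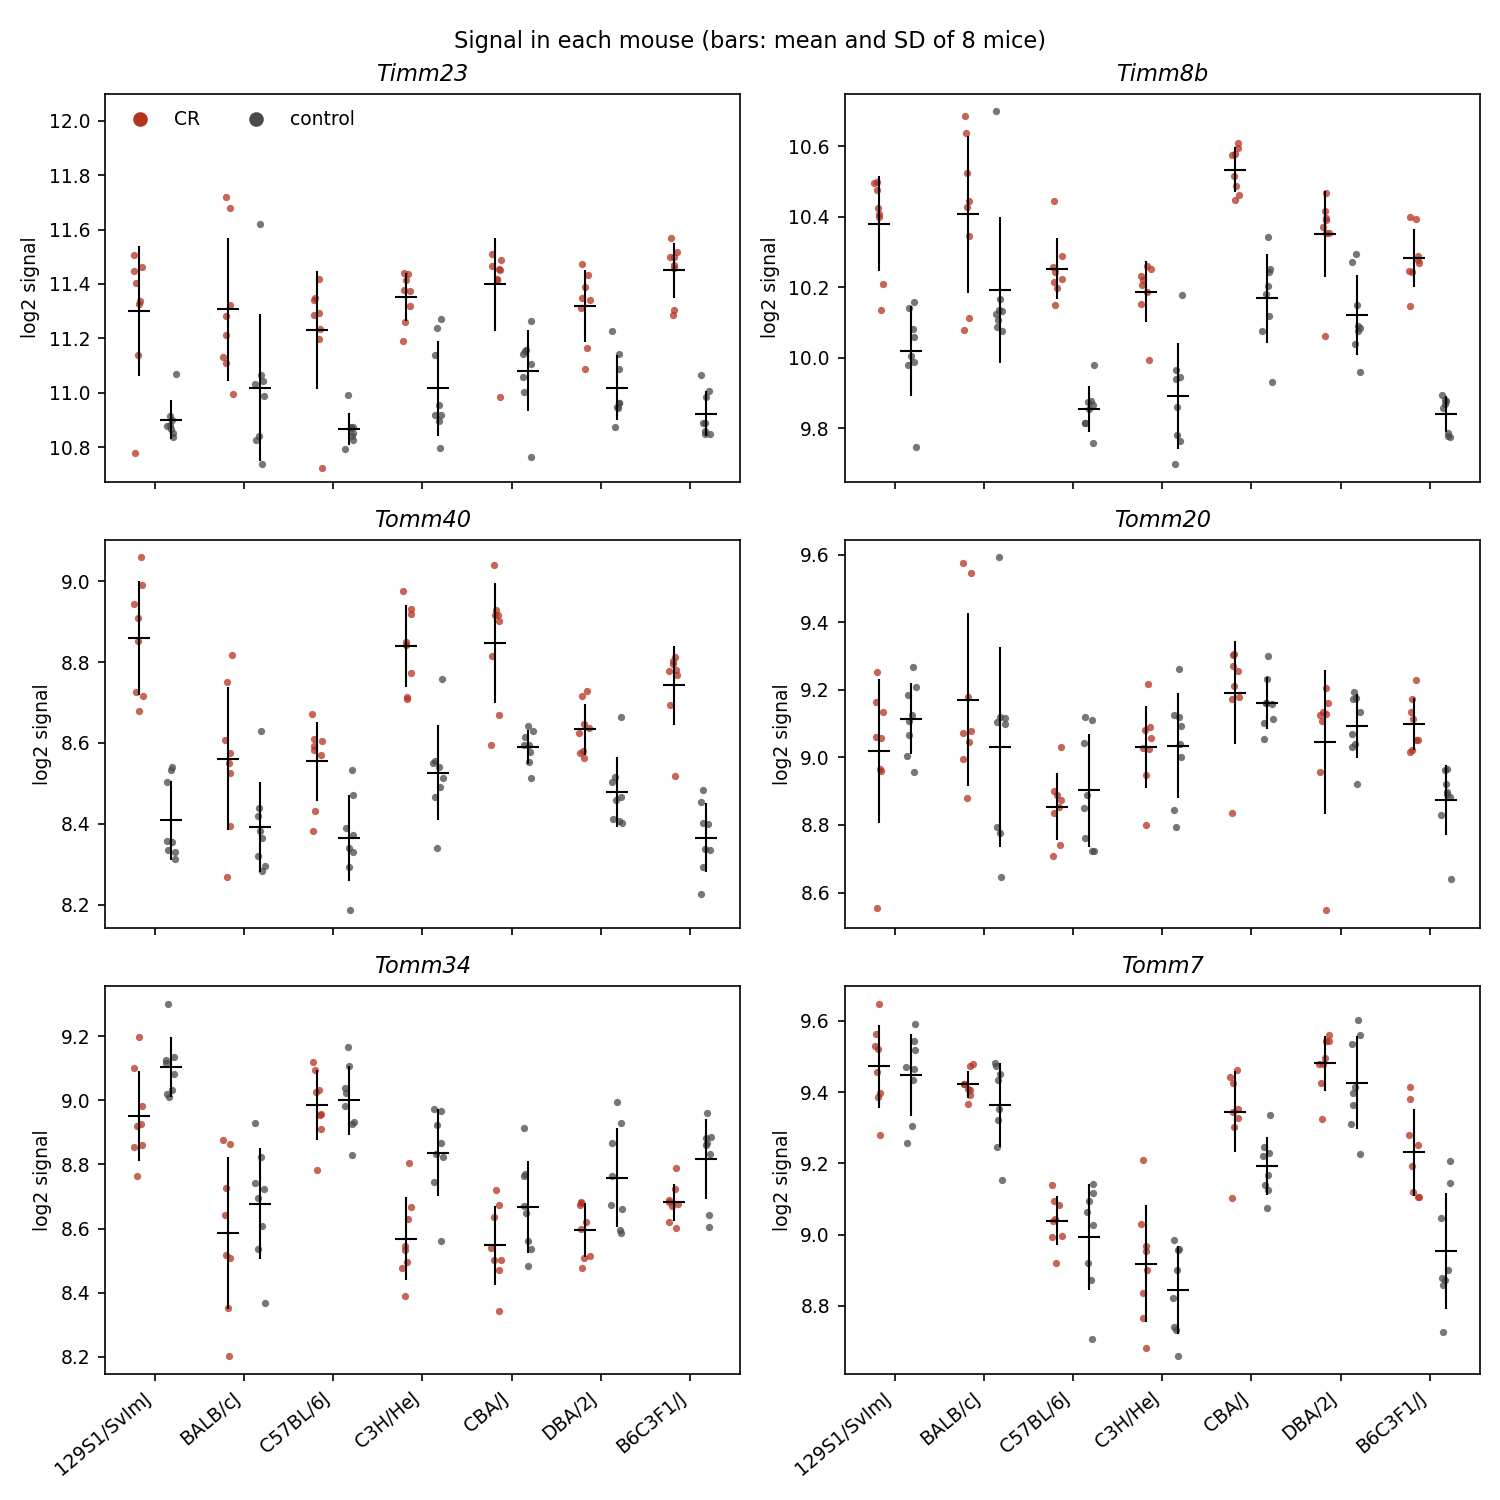
Log2 signal of 6 members in each mouse, by strain, with CR left of the control diet; black bars are the mean and SD of 8 mice. The means of Timm23, Timm8b and Tomm40 are higher on CR in 7 strains, those of Tomm20 in 3 and those of Tomm34 in 0. Tomm7 differs mostly between strains. The diets overlap in every strain but B6C3F1/J for Timm23 and for Tomm20 alike.

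Paralogs were compared by the log2 ratio of the pair within each array, permuting the diet labels within strains. The ratio of Timm17a to Timm17b was higher on CR by 0.10 (SE 0.028, permutation p = 0.0010, adjusted over 5 pairs 0.0026), with 5 strains positive and C57BL/6J at -0.14 and CBA/J at -0.02 negative. This rests on the probe set used for Timm17a, of mean signal 9.92. With the other one, of mean signal 9.08, the ratio changed by 0.02 (permutation p = 0.60, adjusted 0.68), and with the mean of both by 0.06 (permutation p = 0.043, adjusted 0.11). The ratio of Timm8a2 to Timm8b changed by -0.35 (SE 0.041), but Timm8a2 is dim and itself changed by -0.02, so this ratio repeats the 0.33 of Timm8b and is not read as a shift between paralogs. Tomm40 over Tomm40l changed by 0.02 (SE 0.020, permutation p = 0.27), Tomm20 over Tomm20l by 0.00 (SE 0.049, permutation p = 0.92) and Timm8a1 over Timm8b by 0.06 (SE 0.032, permutation p = 0.061), none past 0.05.

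Inner and outer membrane members were set side by side in each strain by their median log2 difference, as a description with no test. In 129S1/SvImJ the inner median was 0.33 and the outer 0.13. In BALB/cJ they were 0.21 (inner) and 0.13 (outer), in C57BL/6J 0.24 (inner) and 0.13 (outer), and in C3H/HeJ 0.25 (inner) and 0.15 (outer). The widest gap was that of CBA/J, with 0.32 (inner) and 0.06 (outer). DBA/2J had 0.17 (inner) and 0.10 (outer), and B6C3F1/J, with 0.45 (inner) and 0.28 (outer), the highest of both. The inner median was the higher in all 7 strains, and that of the intermembrane space lay between 0.23 and 0.46. The outer set includes the dim Tomm20l and the intermembrane set the dim Timm8a2.

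Strain by strain, with limma on the 16 arrays of each, the count of members past an adjusted p under 0.05 varied widely. B6C3F1/J had 21 higher (17.8% of all genes) and 0 lower (16.4%), and Tomm20l, Timm8a2 and Tomm34 were the 3 outside. In 129S1/SvImJ 15 were higher (16.8%) and 0 lower (15.4%), and without its 4 Ucp1 arrays, all of CR mice, 11 were higher. C3H/HeJ had 15 higher (8.75%) and 1 lower (6.88%). CBA/J had 12 higher (8.68%) and 0 lower (12.5%), and 15 higher without its 4 epididymis arrays, all of CR mice. C57BL/6J had 9 higher (9.39%) and 0 lower (7.32%), and 6 higher without its 5 epididymis arrays, all of CR mice. DBA/2J had 3 higher, Timm10, Timm23 and Timm8a1 (0.492%), and 0 lower (0.396%), and 0 higher without its 6 germ cell arrays, which left 3 CR mice. Each of these removals took out CR mice, so the tissue signal and the smaller group cannot be told apart. No share over all genes is given for the counts with arrays left out. In BALB/cJ 0 were higher and 0 lower, where no gene of the table passed (0%). At an unadjusted p under 0.05, 6 were higher there (4.15%), Tomm6, Timm17a, Timm8a1, Timm23, Tomm40 and Timm8b.

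The number of members with all CR mice above all control mice was 12 in B6C3F1/J (6.95% of all genes), 6 in 129S1/SvImJ (3.42%), 3 in CBA/J (1.39%), with Timm44 touching, and 1 in C57BL/6J (2.63%). In C3H/HeJ (1.85%), DBA/2J (0.0702%) and BALB/cJ (0.00502%) it was 0.

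**Figure D3:**
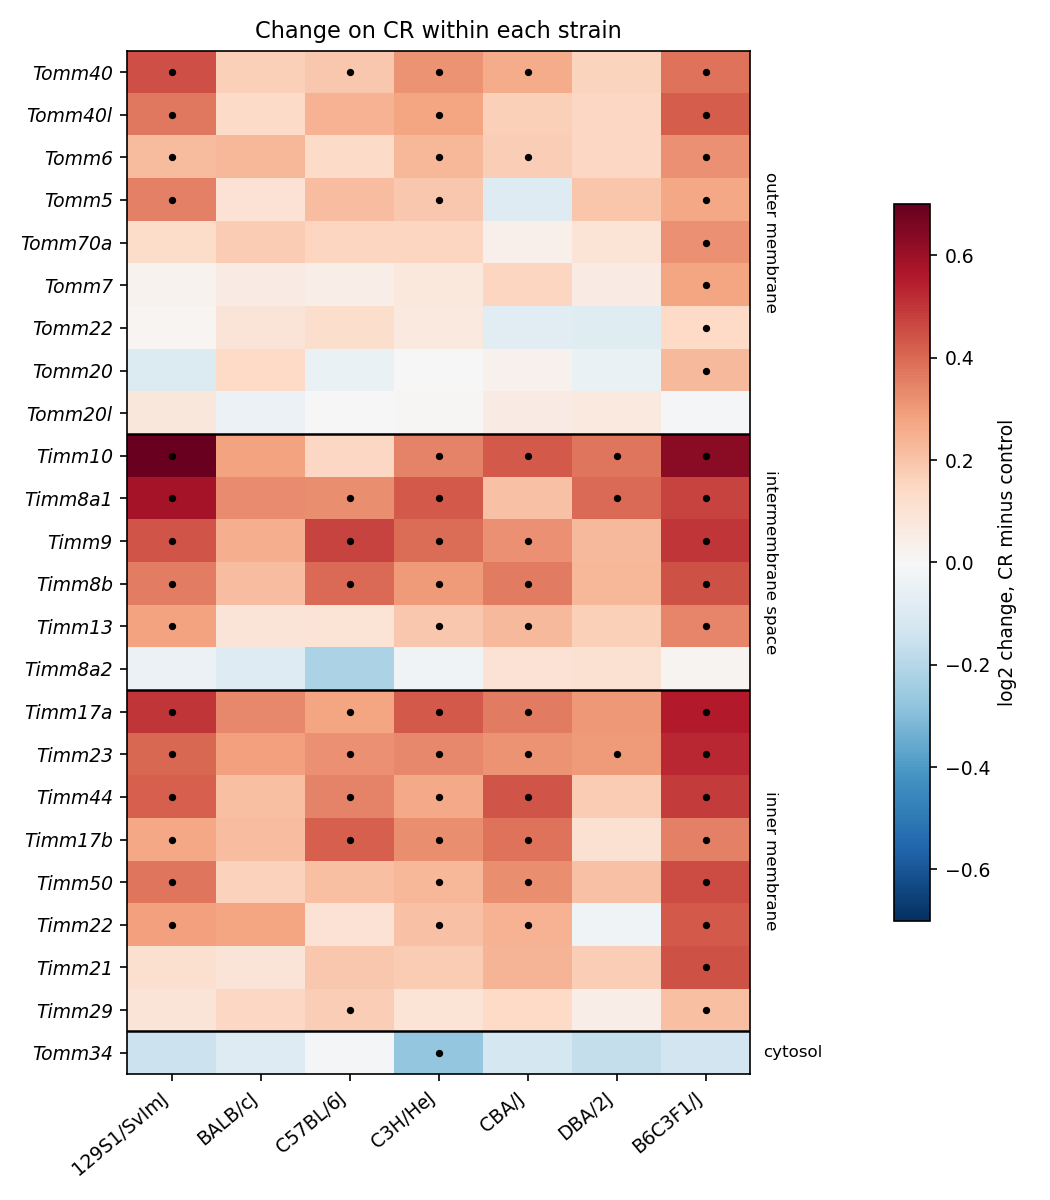
Log2 change on CR minus control for each member (rows, by place of the protein) in each strain (columns), from the fit to the 16 arrays of the strain; dots mark an adjusted p under 0.05. Most rows of the intermembrane space (Timm8a2 apart) and inner membrane are red, with Timm29 paler. In the outer membrane Tomm40 and Tomm40l are red too, while Tomm20, Tomm20l, Tomm22 and Tomm7 are pale. Dots are absent in BALB/cJ.

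The DBA/2J and BALB/cJ counts moved with single mice. In DBA/2J, leaving out each of its 16 mice gave 11 to 13 members higher at an unadjusted p under 0.05, when 6.14 to 10.7% of genes were. At an adjusted p under 0.05 it gave 0 to 5 members higher, for which no share over all genes is given. It gave 0 without control mice 1, 5, 6 or 7 or without CR mice 1, 2, 4, 5 or 8, 1 without control mouse 4 or CR mouse 7, and 5 without CR mouse 3, which had a Ucp1 signal of 10.64 and the lowest signal of its group for 11 members. In BALB/cJ no member passed an adjusted p whichever mouse was left out. At an unadjusted p under 0.05, 15 members were higher without control mouse 3, when 10.1% of genes were. Without any other mouse 1 to 9 members were, when 2.28 to 6.64% of genes were.

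In BALB/cJ the diets overlapped for all 24 members, and the mice of 1 diet lay far apart. Timm17a was at 10.41, 10.18, 10.59, 9.88, 9.92, 9.68, 10.16 and 10.19 in the CR mice 1 to 8, against 9.65, 9.78, 10.48, 9.80, 9.70, 9.55, 9.70 and 9.68 in the control mice 1 to 8. Control mouse 3 thus stood with CR mice 1 and 3, and CR mice 4, 5 and 6 were the lowest of their group. Timm23 was at 11.72 and 11.68 in CR mice 1 and 3, against 11.62 in control mouse 3 and 10.74 to 11.07 in the other control mice. Timm10 was at 7.64 and 7.80 in those CR mice, against 7.73 in that control mouse. Tomm20, which did not pass across strains, took the same course, with 9.58 and 9.54 in those CR mice against 9.59 in control mouse 3. Tomm34 ran the other way, at 8.35 and 8.20 in the CR mice against 8.37 in the control mouse, the lowest of its group. Elovl3, a fatty acid elongase of brown and beige fat, was at 10.15 and 11.08 in CR mice 1 and 3 and at 10.21 in control mouse 3.

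**Figure D4:**
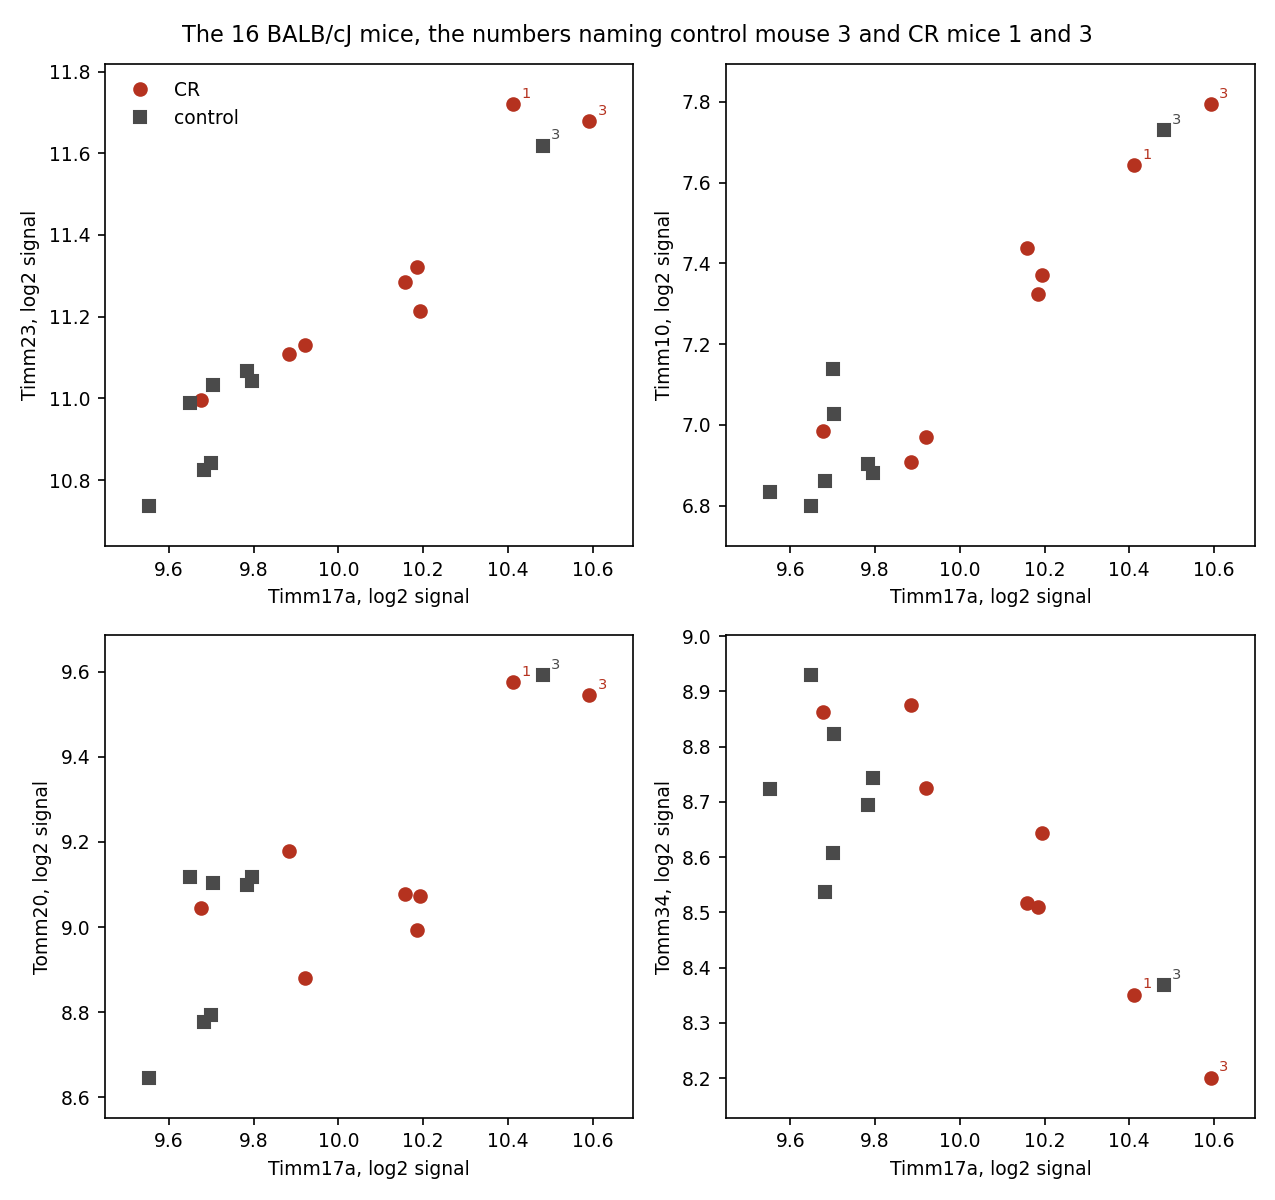
Log2 signal of Timm23, Timm10, Tomm20 and Tomm34 (vertical axes) against that of Timm17a (horizontal axes) in the 16 BALB/cJ mice, CR in red circles and control in grey squares. Control mouse 3 lies beside CR mice 1 and 3 in all 4 panels, high in Timm23, Timm10 and Tomm20 and low in Tomm34.

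At an adjusted p under 0.05, the size of the CR effect differed between strains for 19.0% of all genes. Of the 9969 genes at or above the median signal it differed for 2878, and of the 24 members for 1. This was Tomm40 (adjusted p of the F-test 0.011), with log2 differences within strains of 0.45 in 129S1/SvImJ, 0.17 in BALB/cJ, 0.19 in C57BL/6J, 0.31 in C3H/HeJ, 0.26 in CBA/J, 0.15 in DBA/2J and 0.38 in B6C3F1/J. Timm10 and Timm22 (adjusted p = 0.075) were next. The count was 0 without the Ucp1 arrays, 3 without BALB/cJ control mouse 3 and 9 with array weights, which leave no array out. It thus moved both with the arrays kept and with the fit. No share over all genes is given for these counts. A p that misses the threshold does not show equal responses.

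The level on the control diet differed between strains for 15 of 24 members, against 56.6% of all genes. Of the 9969 genes at or above the median signal, 8106 differed. The members' count lies near the share of all genes, so it is not read as a trait of the members. The smallest p was that of Tomm7 (adjusted p = 2.3e-20). The lowest, median and highest log2 signals of Tomm7 in 129S1/SvImJ were 9.28, 9.49 and 9.65 on CR, against 9.26, 9.47 and 9.59 in control mice. In BALB/cJ Tomm7 was at 9.37, 9.42 and 9.48 on CR, against 9.15, 9.39 and 9.48 in control mice. In C57BL/6J Tomm7 was at 8.92, 9.04 and 9.14 on CR, against 8.71, 9.05 and 9.14 in control mice. The control mice of C57BL/6J lay below all those of 129S1/SvImJ and BALB/cJ. In C3H/HeJ Tomm7 was at 8.68, 8.93 and 9.21 on CR, against 8.66, 8.86 and 8.99 in control mice. In CBA/J Tomm7 was at 9.10, 9.35 and 9.46 on CR, against 9.08, 9.19 and 9.34 in control mice. In DBA/2J Tomm7 was at 9.32, 9.49 and 9.56 on CR, against 9.23, 9.41 and 9.60 in control mice. The control mice of C3H/HeJ all lay below those of CBA/J and DBA/2J. In B6C3F1/J Tomm7 was at 9.10, 9.22 and 9.41 on CR, against 8.73, 8.89 and 9.21 in control mice. In control means the order was 129S1/SvImJ (9.45 ± 0.11), DBA/2J (9.43 ± 0.13), BALB/cJ (9.36 ± 0.12), CBA/J (9.19 ± 0.08), C57BL/6J (8.99 ± 0.15), B6C3F1/J (8.95 ± 0.16) and C3H/HeJ (8.84 ± 0.12), with the first 3 and the last 3 within 1 SD of their neighbours (SD, n = 8 each). The hybrid's mean stood between those of its parent strains, within 1 SD of both. For any gene in this comparison, a probe that mismatches a strain's allele gives the same pattern as a difference in level, which was not tested. Across this range the change on CR was 0.02 to 0.28, and Tomm7 passed within B6C3F1/J alone (0.28, SE 0.070, adjusted p = 0.0045). Tomm34 (adjusted p = 1.1e-08) was highest on the control diet in 129S1/SvImJ and C57BL/6J, with means of 9.10 and 9.0, and lowest in CBA/J and BALB/cJ, with 8.67 and 8.68. Timm8b (adjusted p = 1.2e-08) was highest in BALB/cJ and CBA/J, with 10.19 and 10.17, and lowest in B6C3F1/J, with 9.84.

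Members also varied together from mouse to mouse. After the group means were removed, the median Pearson r over the 276 pairs was 0.39 (n = 112 arrays, which share the normalization), against 0.07 for members paired with other genes at or above the median signal. The closest pairs were Timm17a with Timm23 (r = 0.83) and Timm23 with Timm9 (r = 0.81). Tomm20 was closest to Tomm70a (r = 0.75), a fellow receptor. Tomm34 was negative with 20 of its 23 partners, down to -0.66 with Timm13. Timm8a2 and Tomm20l, both dim, had mean r with the other members of 0.00 and -0.15. These correlations are a description.

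The other genes of the import and folding path moved largely the same way. Of 27 listed genes 25 were measured, and across strains 20 were higher, 2 lower and 3 not past the threshold, against the 21.9% and 22.0% of all genes. Hspa9, the mitochondrial Hsp70 that drives the import motor, changed by 0.48 (adjusted p = 9.0e-24, SE 0.034). Hspd1, the matrix chaperonin, changed by 0.50 (SE 0.036, adjusted p = 3.7e-23), Dnlz, which keeps Hspa9 soluble, by 0.26 (SE 0.023) and Grpel1, its nucleotide exchange factor, by 0.38 (SE 0.033). Hspa8, the cytosolic Hsp70, fell by 0.16 in the mean of the strains (SE 0.022, adjusted p = 4.2e-10), and Samm50, which inserts barrel proteins in the outer membrane, by 0.09 (SE 0.027, adjusted p = 0.0019). The CR effect differed between strains for 8 of the 25 (F-test, adjusted p under 0.05), Hspd1, Hspa8 and Samm50 among them, against 19.0% of all genes. Samm50 ran from -0.31 in C3H/HeJ to 0.07 in DBA/2J and was above 0 in CBA/J too. Hspa8 ran from -0.35 in CBA/J to -0.003 in C3H/HeJ. Xpnpep3 was at -0.03 and did not pass. Among complex I subunits 34 of 35 were higher, with a median change of 0.29, and among mitochondrial ribosome proteins 74 of 77, with a median of 0.24. The inner membrane members' median of 0.29 lay at the same level as these nuclear genes of other mitochondrial machines. Immp2l and Hsp90ab1 were not analysed here.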

How the data were processed

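Log2 expression values were deposited by the authors in 1 table, made with the RMA-Sketch workflow of Affymetrix Expression Console at the gene level (the labels name both) from 112 arrays, and were used as deposited. Of 35556 probe sets, 21789 carry 1 gene symbol, 1621 several and 12146 none in the platform annotation; the brightest per symbol gave 19938 genes. Array medians were 6.72 to 6.86. Precision is set by the number of arrays.

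limma 3.58.1 (R 4.3.3) fitted the 14 groups together for the mean of the 7 differences and for F-tests between strains, and each strain's 16 arrays alone, with Benjamini-Hochberg adjustment over all genes at 0.05. The fits were tested on simulated data. Paralog ratios were compared by 100000 two-sided permutations of diet labels within strains. Other normalizations, filters, weights and array choices were tried, with effects given in the closing section. Reference promoters were those of GRCm38.p6.

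Members given strain by strain are the 4 with the smallest p in each direction (only 2 were below 0), the 3 with the smallest p in either F-test and the paralog pairs; of other import genes, the 4 with the smallest p in each direction. Members, lists and tests were chosen with earlier results of these data known.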

Additional observations from a re-analysis of the deposited data

Results flagged for a closer look

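In the 15 members given strain by strain, each of 210 groups of 8 mice was checked for a mouse far from the rest by Dixon's ratio of gap to range, which chance gives in about 1 of 20 groups. It was met 38 times. The groups share mice and the members vary together, so 1 mouse can count for several members and the 38 are not independent. BALB/cJ control mouse 3 accounts for 9, all high, with Timm8b at 10.70, Tomm40 at 8.63, Timm44 at 8.27, Timm23 at 11.62, Timm10 at 7.73, Timm22 at 8.09, Timm17a at 10.48, Timm17b at 9.44 and Timm8a1 at 6.74.

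On CR, the low mice were B6C3F1/J mouse 8 (Tomm40 8.52, Timm17a 9.78, Tomm20l 6.36, Timm8a1 6.36), CBA/J mouse 5 (Timm23 10.98, Timm17a 9.75, Tomm40l 7.38), CBA/J mouse 7 (Tomm7 9.10, Tomm20 8.83), C57BL/6J mouse 2 (Timm23 10.72, Timm17a 9.49), DBA/2J mouse 3 (Timm8b 10.06, Tomm20 8.55), 129S1/SvImJ mouse 8 (Tomm20 8.55) and the C3H/HeJ mice 4 (Timm8b 9.995), 8 (Timm8a2 3.98) and 5 (Tomm20l 6.27).

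On the control diet they were 129S1/SvImJ mouse 1, low (Timm8b 9.75, Timm17a 9.39), mouse 8, high (Timm44 7.73, Timm23 11.07) and mouse 5, high (Tomm34 9.30), DBA/2J mouse 2, high (Tomm40 8.66, Timm8a1 6.53), C57BL/6J mouse 5, high (Timm23 10.99), the C3H/HeJ mice 8 (Timm8a2 4.78) and 6 (Timm17b 9.01), both high, CBA/J mouse 2, low (Tomm40l 7.47) and B6C3F1/J mouse 7, low (Tomm20 8.64).

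The CR effect on Tomm40 differed between strains by the F-test (adjusted p = 0.01139).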

How the results depend on the processing

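Under 19 settings the members higher on CR across strains numbered 18 to 20 and those lower 1, each of the 19 and Tomm34 passing wherever tested. Under 15 the medians ran over 0.12 to 0.17 (outer), 0.33 to 0.38 (intermembrane) and 0.27 to 0.31 (inner), and members with differing control levels numbered 12 to 18 under 11. Members whose effect differed between strains numbered 4 among genes at or above the median signal, 9 with array weights, 3 with the replicate block, 3 without BALB/cJ control mouse 3, 2 without germ cell arrays and 0 without Ucp1 arrays, against 1. Within strains, DBA/2J had 8 higher by the methods' t-test at an unadjusted p under 0.01 (0 adjusted), 6 by limma at that p, 5 in 1 model of all arrays, 1 with the replicate block, 1 with centred arrays, 0 without germ cell arrays and 0 to 5 leaving out 1 mouse, against 3. C57BL/6J had 5 higher with the replicate block, against 9. BALB/cJ had 2 higher in 1 model. No share over all genes is given for these counts, so a change in the members alone cannot be read from them. The Timm17a to Timm17b ratio changed by 0.0163 with the other probe set of Timm17a and 0.0578 with the mean of both, against 0.10, and no longer passed. Timm10 was exceeded by Timm17a without 129S1/SvImJ and by Timm8a1 without CBA/J or B6C3F1/J, so no order among these is given. A count of 1 lower in place of 0 arose in 129S1/SvImJ (brighter genes), C57BL/6J (1 model; without epididymis arrays) and B6C3F1/J (adjusted t-test; brighter genes). Of 56 pairs of CR and control mice with the same replicate number, 18 correlated above 0.1 after group means were removed (median r 0.03, highest 0.55). Pairs with different numbers were not compared, so these values do not settle whether the numbers pair the mice. The causes were not tested. No result reversed. The settings without doubtful arrays, the probe sets of paralogs and the DBA/2J mice left out were added after the data were seen. Signal limits Timm8a1, Timm8a2 and Tomm20l, which lie below the median of all genes.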
